A study of Mus musculus with 8 samples.

Results

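The genes described here are 5 mouse genes of DNA mismatch repair, Msh6, Msh3, Pms2, Pms1 and Mlh3, chosen by symbol out of 55487 genes in the deposited table. The series holds 8 RNA-seq libraries from mouse embryos at the 2-cell stage, 4 in each of 2 groups, and every library came from a pool of 5 embryos. Embryos of both groups were injected at the 1-cell stage, 20 hours after hCG (the hormone that triggers ovulation), with CasRX, an RNA-guided nuclease that cuts RNA. In the control group CasRX was given without a named target, and the genotype is labelled WT. In the other group, called knockdown-labelled here, it was directed at Polq, the gene of DNA polymerase theta, which joins broken DNA ends, and the genotype is labelled polq knockdown. RNA was taken 10 hours after injection in both groups. The labels give no strain, no guide sequence and no control guide.

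Mismatch repair removes base mismatches and small loops left by DNA replication. A MutS dimer recognises the error: Msh6 is the subunit of the dimer that binds base mismatches and small loops, and Msh3 that of the dimer that binds larger loops. A MutL dimer is then recruited, in which Pms2 carries the nicking activity used in most repair, Mlh3 has its main known role in meiotic crossing over, and the role of Pms1 in mammals is less well defined. In the early embryo these proteins and their transcripts come at first from the oocyte. Fewer copies per embryo and a smaller share of the RNA cannot be told apart in such pools.

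All 5 transcripts passed the filter on low counts, which left 13146 genes for the test, Pms1 with only 4 libraries above the filter's minimum, 3 of them knockdown-labelled. None of the 5 passed at an adjusted p under 0.05 (edgeR's quasi-likelihood test with Benjamini-Hochberg adjustment, adjusted p = 0.99992 for each), where 0% of all tested genes did. None had an unadjusted p under 0.05, where 2.81% of all tested genes did, and none had groups that did not overlap, where 2.98% did. DESeq2 and limma-voom called none of the 5 either, and at an unadjusted p under 0.05 limma-voom had 1 (Pms1) and DESeq2 had 0. In the fitted differences 3 of the 5 were negative and 2 positive, with a median log2 fold change of -0.24 (knockdown-labelled minus control throughout). Over all genes tested the median was -0.05, with 7018 negative and 6128 positive. The widths of the intervals differed greatly among the 5 genes and are given below with each. Across the 8 libraries Pms1 spread from 0 to 203 counts and Mlh3 from 0 to 385, while Msh6 in the controls stayed within a narrow range.

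The controls held between 33311665 and 43748621 counts, and the knockdown-labelled libraries between 4726159 and 33650050, of which 3 held at most 8627403. Polq itself did not separate the groups, with 39.3 ± 7.65 counts per 1000000 (CPM, on TMM-scaled library sizes, mean ± SD, n = 4) in controls and 31.5 ± 11.04 in the knockdown-labelled group. Its log2 fold change was -0.32 (SE 0.34, edgeR adjusted p = 0.99992). Knockdown-labelled replicates 1 to 4 held 16.9, 38.9, 29.2 and 41.1 CPM of Polq, against a control range of 32.7 to 49.7 CPM. Replicates 1 and 3 thus lay under every control, and replicates 2 and 4 inside the range. Without knockdown-labelled replicate 1 the log2 fold change of Polq was -0.11. Of the libraries above 30000000 counts only 1, replicate 4, is knockdown-labelled. All 12 markers of the oocyte and 2-cell stage were tested, and their summed level was 34018 to 41514 CPM in controls and 29382 to 45075 CPM in the other group. Dppa3 made up nearly all of this sum, with means of 36672 and 35362 CPM, so the sum says little about the other markers. The next highest, Obox3, had means of 517 and 625 CPM. Of 12 markers of the cells that surround the oocyte, 9 were at 0 in every library, and the sum of the 12 was 0 to 21.5 CPM in controls and 0.793 to 10.7 CPM in the other group. Of 7 sperm markers 6 were at 0, and their sum was at most 7.06 CPM in controls and 7.34 CPM in the other group.

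**Figure D1:**
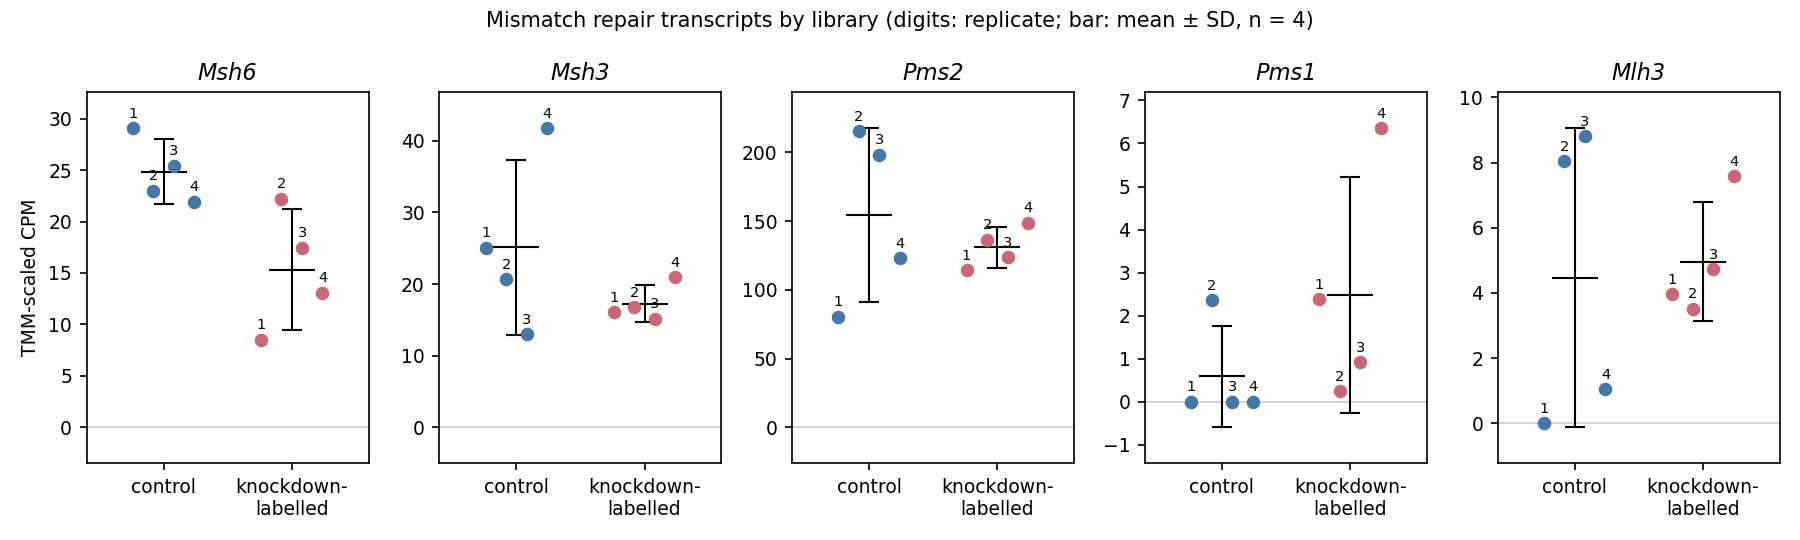
Level of each gene in each library, in TMM-scaled CPM, with a separate vertical axis for each gene. Points are libraries with the replicate number beside them, and bars are mean ± SD of 4 libraries: 3 of the 4 knockdown-labelled libraries of Msh6 sit under all controls, Msh3, Pms2 and Mlh3 spread more in the controls, and Pms1 is at 0 in 3 controls. How often tested genes show such patterns was not examined.

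The starts of Pms2 and Pms1 each face a gene on the other strand across a short stretch of DNA, and those stretches are shown because the neighbour's RNA was measured in the same libraries and because they belong to the highest and the lowest of the 5 genes per kilobase. They were read from the RefSeq promoter table (GRCm38.p6) 5′ to 3′ on the strand of the repair gene, with CCAAT or its complement ATTGG and GGGCGG or its complement CCGCCC in capitals. The Pms2 stretch is chr5:143909848-143909963 on the plus strand (116 bases, between the starts of Pms2 and Aimp2), and the Pms1 stretch is chr1:53297019-53297094 on the minus strand (76 bases, between the starts of Pms1 and Ormdl1).
Pms2: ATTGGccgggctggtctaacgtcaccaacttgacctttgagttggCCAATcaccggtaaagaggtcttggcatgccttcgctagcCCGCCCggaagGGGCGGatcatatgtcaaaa
Pms1: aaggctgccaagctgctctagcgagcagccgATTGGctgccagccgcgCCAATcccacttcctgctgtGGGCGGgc
Each stretch holds the CCAAT letters on both strands, and the GGGCGG letters occur 2 times in that of Pms2 and 1 time in that of Pms1. In the promoter windows of 32817 gene starts (250 bases before to 50 after), CCAAT or its complement was found in 37.39% and GGGCGG or its complement in 35.63%. These shares count any match on either strand in a whole window, which is longer than either stretch. The share of windows with CCAAT on both strands was not examined. The windows of Msh6 and Mlh3 held the CCAAT letters as well, that of Msh3 did not, and that of Mlh3 alone among the 5 genes held no GGGCGG. Neither TATAAA nor its complement, found in 13.62% of windows, was in a window of any of the 5 genes. The windows held 51.7% to 71.7% G and C, lowest for Mlh3 and highest for Msh6, against a median of 52.7% over all windows. They held 19 to 37 CpG pairs, against a median of 7. These matches describe the letters only, and no binding was measured.

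Msh6 (ENSMUSG00000005370, chr17:87975062-87990892, plus strand, GRCm38, protein-coding with 11 exonic regions) was the gene of the 5 with the smallest spread among controls. The 4 controls held 29.1, 23.0, 25.4 and 21.9 CPM in replicates 1 to 4, from 730 to 1111 counts. The knockdown-labelled libraries held 8.53, 22.2, 17.4 and 13.1 CPM, from 43, 183, 151 and 417 counts. Knockdown-labelled replicates 1, 3 and 4 thus lay under every control, while replicate 2 lay inside the control range, close to its lower end. The share of tested genes with 3 of 4 knockdown-labelled libraries under every control was not examined. For replicate 1, the lowest, the 95% Poisson interval was 6.17 to 11.5 CPM, which does not reach the lowest control. Such intervals and the limits given below cover counting error only, and without molecular identifiers reads are not independent molecules.

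The group means of Msh6 were 24.9 ± 3.18 CPM and 15.3 ± 5.88 CPM (SD, n = 4), a fitted fold of 0.617 with a 95% interval of 0.341 to 1.12. On the log2 scale the difference was -0.70 (SE 0.38). The call did not pass (edgeR adjusted p = 0.99992), and the interval holds both no difference and a fold as low as 0.341. Leaving out 1 library at a time moved the log2 value between -0.92 (without knockdown-labelled replicate 2) and -0.50 (without knockdown-labelled replicate 1). The coefficient of variation (SD over mean) was 0.128 in the controls, where 1890 tested genes within 1.5-fold of its level had a median of 0.421 and Msh6 lay at percentile 2.33. In the knockdown-labelled group it was 0.384, also under the median of 0.493 for genes of like level (percentile 32.0). The 3 shallow libraries belong to the knockdown-labelled group. After each library was thinned at random (1 draw) to the smallest total, the controls held 133, 93, 120 and 114 counts of Msh6 and the knockdown-labelled libraries 43, 104, 93 and 60, and the fitted log2 difference was -0.60.

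The last exon of Msh6 overlaps that of Fbxo11 by 34 bases on the other strand. Fbxo11, which encodes a substrate-binding part of a ubiquitin ligase, had 214 ± 59.4 CPM and 203 ± 35.1 CPM (log2 fold change -0.08, SE 0.23). No source used here gives the strand setting of the counting, so reads in such overlaps cannot be told apart.

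Msh3 (ENSMUSG00000014850, chr13:92211872-92355003, minus strand, GRCm38, protein-coding with 27 exonic regions) had 25.1, 20.7, 13.0 and 41.8 CPM in control replicates 1 to 4. In the knockdown-labelled libraries it had 16.1, 16.8, 15.1 and 21.0 CPM. The lowest and the highest of all 8 values were both controls (replicates 3 and 4), and the knockdown-labelled values all lay between them. The expected counts were 567 to 1796.13 in controls and 81 to 668.95 in the other group, not whole in 4 libraries, as happens where reads are shared out among several genes.

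Group means of Msh3 were 25.1 ± 12.2 CPM and 17.2 ± 2.58 CPM (SD, n = 4). The fitted fold was 0.687 with a 95% interval of 0.365 to 1.29 (log2 -0.54, SE 0.41, edgeR adjusted p = 0.99992). Control replicate 4 set much of this value, since without it the log2 difference was -0.18, and without control replicate 3 it was -0.76. The coefficient of variation was 0.485 in controls, near the median of 0.418 for genes of like level. In the knockdown-labelled group it was 0.150, at percentile 3.65 of genes of like level. In spread the MutS pair thus went opposite ways between the groups, with Msh6 the tighter of the pair in controls and Msh3 in the knockdown-labelled libraries, a description over 4 libraries a group without a test.

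Stretches of at least 100 bases at 95% identity or more tie Msh3 transcripts to other genes, among them one of 298 bases in Gm44007. Msh3 counts are therefore less certain than those of Msh6, which had no such stretch.

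Within a library, the ratio of Msh6 to Msh3 does not depend on how libraries are scaled. Its log2 value (0.5 added to each count) was 0.22, 0.15, 0.97 and -0.93 in control replicates 1 to 4 and -0.91, 0.41, 0.20 and -0.68 in the knockdown-labelled libraries. Msh6 had more counts than Msh3 in 5 of the 8 libraries, 3 controls and 2 of the other group. The means were 0.10 ± 0.78 and -0.24 ± 0.65 (SD, n = 4), a difference of -0.35 (2-sided exact permutation test over 70 assignments, p = 0.629, adjusted over the 4 ratios examined p = 0.629). The difference was -0.06 without control replicate 3 and -0.69 without control replicate 4, while it was -0.13 when knockdown-labelled replicate 1 was left out. With 4 libraries against 4 the smallest p that this test can give is 0.0286.

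Pms2 (ENSMUSG00000079109, chr5:143909964-143933968, plus strand, GRCm38, protein-coding with 15 exonic regions) was the most abundant of the 5 in every library. The controls held 80.5, 215, 198 and 123 CPM in replicates 1 to 4, from 2633 to 8666 counts. The knockdown-labelled libraries held 114, 136, 124 and 149 CPM, from 577 to 4747 counts. The controls fell into a low value (replicate 1), a middle value (replicate 4) and a pair near 200 CPM, and every knockdown-labelled library lay inside that range. Means were 154 ± 63.4 CPM and 131 ± 15.0 CPM (SD, n = 4).

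The fitted fold of Pms2 was 0.848 with a 95% interval of 0.536 to 1.34, the narrowest interval of the 5 (log2 -0.24, SE 0.30, edgeR adjusted p = 0.99992). Without control replicate 2 the log2 value was -0.03, and without control replicate 1 it was -0.44. The coefficient of variation was 0.411 in controls, at percentile 90.5 of 707 tested genes of like level, whose median was 0.245. In the knockdown-labelled group it was 0.115, against a median of 0.242. The 95% Poisson interval, which covers counting error only, was 77.5 to 83.6 CPM for replicate 1 and 210 to 220 CPM for replicate 2.

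Aimp2, which encodes a scaffold protein of the aminoacyl-tRNA synthetase complex, starts 117 bases from Pms2 across the stretch printed above. It had 58.4, 61.0, 121 and 121 CPM in control replicates 1 to 4. Its knockdown-labelled values were 84.1, 157, 111 and 98.1 CPM. The neighbours differed most in control replicate 2, the highest library for Pms2 and the second lowest for Aimp2. The means of Aimp2 were 90.3 ± 35.3 CPM and 113 ± 31.5 CPM (log2 0.32, SE 0.32, edgeR adjusted p = 0.99992). On the same strand Pms2 overlaps Rsph10b by 85 exonic bases and the gene model Gm42421 by 394. Gm42421 was at 0 counts in every library, and Rsph10b held counts in 3 libraries, at most 37.

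Pms1 (ENSMUSG00000026098, chr1:53189187-53297018, minus strand, GRCm38, protein-coding with 15 exonic regions) was at or under 3 counts in 4 of the 8 libraries, 3 controls and 1 knockdown-labelled library. It had 0, 75, 0 and 0 counts in control replicates 1 to 4, that is 2.36 CPM in replicate 2 and none in the others. At the depth of the 3 controls at 0, 3 counts equal 0.0917, 0.0686 and 0.0698 CPM. The 95% Poisson intervals of these 0 counts reach 0.113, 0.0844 and 0.0859 CPM. The knockdown-labelled libraries held 12, 2, 8 and 203 counts, or 2.38, 0.243, 0.924 and 6.36 CPM. The 2 counts of replicate 2 have a 95% Poisson interval of 0.0294 to 0.878 CPM. Thus all 4 knockdown-labelled libraries held at least 2 counts, 3 of them at totals of at most 8627403. By contrast, 3 controls with totals of at least 33311665 held none. How many other genes share this contrast was not examined. Of the 4 libraries above the filter's minimum 3 are knockdown-labelled, so the contrast is not support for a difference. The coefficient of variation of Pms1 was 2.0 in controls, at percentile 94.7 of 721 tested genes of like level (median 0.955). With 3 of 4 values at 0 it is 2.0 whatever the remaining value, so this percentile only restates the libraries at 0. It was 1.11 in the knockdown-labelled group, at percentile 66.2.

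The groups still overlapped, because control replicate 2 lay above knockdown-labelled replicates 2 and 3 and level with replicate 1. Means of Pms1 were 0.591 ± 1.18 CPM and 2.48 ± 2.74 CPM (SD, n = 4). The fitted fold was 4.20 with a 95% interval of 0.145 to 122 (log2 2.07, SE 2.18, edgeR adjusted p = 0.99992), an interval too wide to give a direction. Without control replicate 2 every control was at 0, and the knockdown-labelled mean was 98.6 times the level of 3 counts over the 3 controls together (0.0251 CPM). That ratio leaves out the only control with counts and ignores the spread of the knockdown-labelled values. It rests largely on knockdown-labelled replicate 4, without which it is 47.1, and is not support for a difference. With all controls and without knockdown-labelled replicate 4 the fitted log2 value was 0.98. Ormdl1, which encodes a regulator of sphingolipid synthesis, starts 77 bases from Pms1. It was at 0 in all controls and had 1 count and 29 counts in knockdown-labelled replicates 1 and 3, too few for the test. Pms1 transcripts share stretches of at least 100 bases at 95% identity or more with Gm15457 (167 bases) and Gm28777 (141 bases). Gm28777 also overlaps Pms1 by 138 exonic bases on the other strand and was at 0 counts in every library.

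Mlh3 (ENSMUSG00000021245, chr12:85234520-85270599, minus strand, GRCm38, protein-coding with 13 exonic regions) differed more among controls than between groups. It had 0, 8.03, 8.81 and 1.05 CPM in control replicates 1 to 4, from 0, 255, 385 and 45 counts. The knockdown-labelled libraries held 3.97, 3.52, 4.74 and 7.58 CPM, from 20, 29, 41 and 242 counts. Control replicates 1 and 4 lay under all knockdown-labelled libraries and control replicates 2 and 3 above them all. For control replicate 1 the 95% Poisson interval of a count of 0 reaches 0.113 CPM, far under the other 7 libraries.

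Means of Mlh3 were 4.47 ± 4.59 CPM and 4.95 ± 1.82 CPM (SD, n = 4), a fitted fold of 1.11 with a 95% interval of 0.126 to 9.79 (log2 0.15, SE 1.41, edgeR adjusted p = 0.99992). The sign of this value rested on single libraries: it was -0.25 without control replicate 1, -0.18 without control replicate 4 and -0.14 without knockdown-labelled replicate 4. Mlh3 shared no stretch of 100 bases at 95% identity with another gene, and no exonic base with an overlapping gene. The coefficient of variation was 1.03 in controls and 0.368 in the knockdown-labelled group, against medians of 0.800 and 0.744 for genes of like level.

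**Figure D2:**
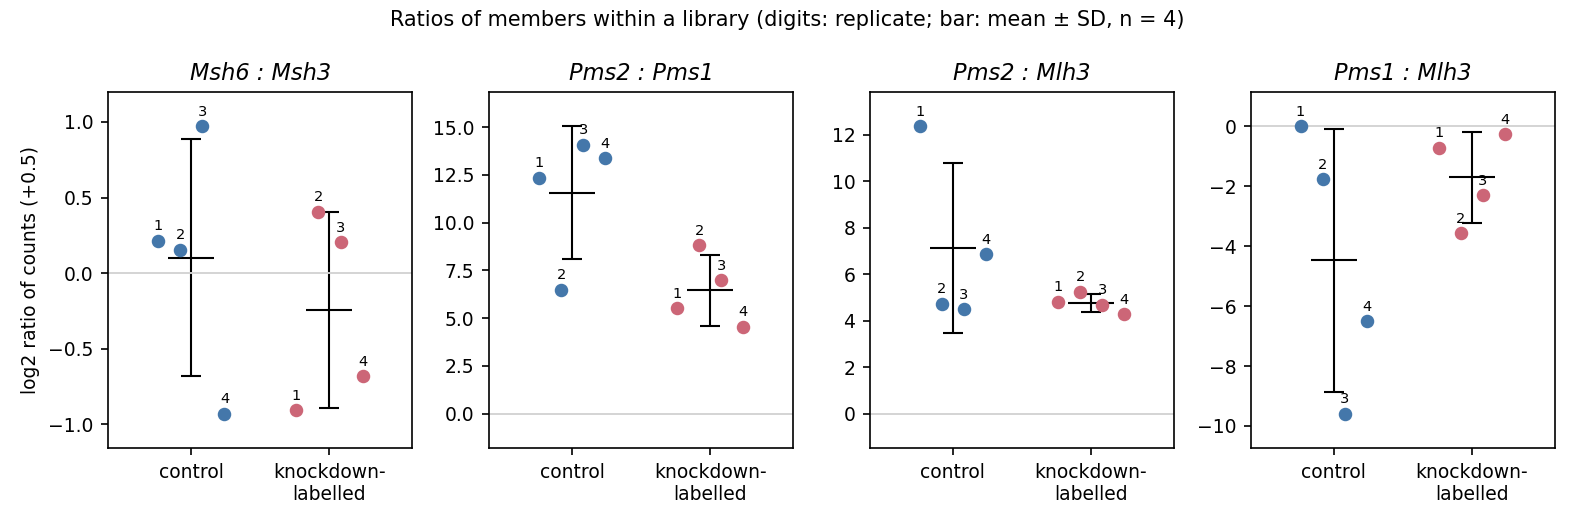
Log2 ratios between pairs of the genes within each library, from counts with 0.5 added, with replicate numbers beside the points and bars for mean ± SD of 4 libraries. Controls of Pms2 to Pms1 lie between 6.50 and 14.08 and knockdown-labelled libraries between 4.54 and 8.81, with control replicate 2 inside the range of the other group.

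The ratios among the MutL genes were set largely by the libraries at 0. The log2 ratio of Pms2 to Pms1 was 12.36, 6.50, 14.08 and 13.37 in control replicates 1 to 4 and 5.53, 8.81, 6.98 and 4.54 in the knockdown-labelled libraries. The means were 11.58 ± 3.46 and 6.47 ± 1.86 (SD, n = 4), a difference of -5.11 (exact permutation test, p = 0.0857, adjusted over the 4 ratios p = 0.343). Where Pms1 was at 0, the ratio depends on the value added and on depth, and after thinning the difference was -3.00. The log2 ratio of Pms2 to Mlh3 was 7.11 ± 3.66 in controls and 4.76 ± 0.40 in the other group (difference -2.35, exact permutation test, p = 0.286, adjusted p = 0.457). Without control replicate 1, where Mlh3 was at 0, that difference was -0.60. The ratio of Pms1 to Mlh3 was -4.46 ± 4.39 and -1.70 ± 1.51 (difference 2.76, exact permutation test, p = 0.343, adjusted p = 0.457), and the difference was 0.95 after thinning, 1.05 without control replicate 3 and 4.25 without control replicate 1. In all 8 libraries Pms2 had more counts than either of the other MutL genes.

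Per kilobase of exon (CPM over the summed length of all annotated exons), the 5 transcripts ran from the lower end to the upper part of the range of tested genes. Over the 8 libraries Pms2 had a mean of 17.6 CPM per kb, at percentile 83.7 of 12788 tested genes, whose median was 2.60. Msh6 followed with 4.62 (percentile 63.0), Msh3 with 1.88 (percentile 42.2), Mlh3 with 0.624 (percentile 17.9) and Pms1 with 0.203 (percentile 3.71). This order was the same in the mean of either group. In controls the levels were 19.0 ± 7.81, 5.72 ± 0.731, 2.23 ± 1.08, 0.592 ± 0.608 and 0.0783 ± 0.157 CPM per kb (SD, n = 4). In the knockdown-labelled group they were 16.1 ± 1.85, 3.52 ± 1.35, 1.53 ± 0.229, 0.656 ± 0.242 and 0.328 ± 0.363.

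Neighbours in this order were compared library by library. Pms2 was above Msh6 in 8 of 8 libraries, with a median ratio of 3.99, and Msh6 above Msh3 in 8 of 8, with a median ratio of 2.93. Msh3 was above Mlh3 in 7 of 8, all but control replicate 3, and Mlh3 above Pms1 in 7 of 8, all but control replicate 1, where both were at 0. The mean ± SD ranges of Pms2 and Msh6 and of Msh6 and Msh3 were apart in both groups. Those of Msh3 and Mlh3 overlapped in the controls, and those of Mlh3 and Pms1 in both groups. The place of Msh6 and Msh3 depends on the length used, since 6.45 CPM per kb of coding sequence for Msh3 stands against 4.93 for Msh6. Of the summed per-kilobase level of the 5 genes, Pms2 took 52.6% to 76.9% in a library, Msh6 10.7% to 35.5%, Msh3 3.54% to 15.4%, Mlh3 at most 4.01% and Pms1 at most 3.37%. The summed CPM of the 5 genes was 135 to 269 in controls and 145 to 197 in the knockdown-labelled group.

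**Figure D3:**
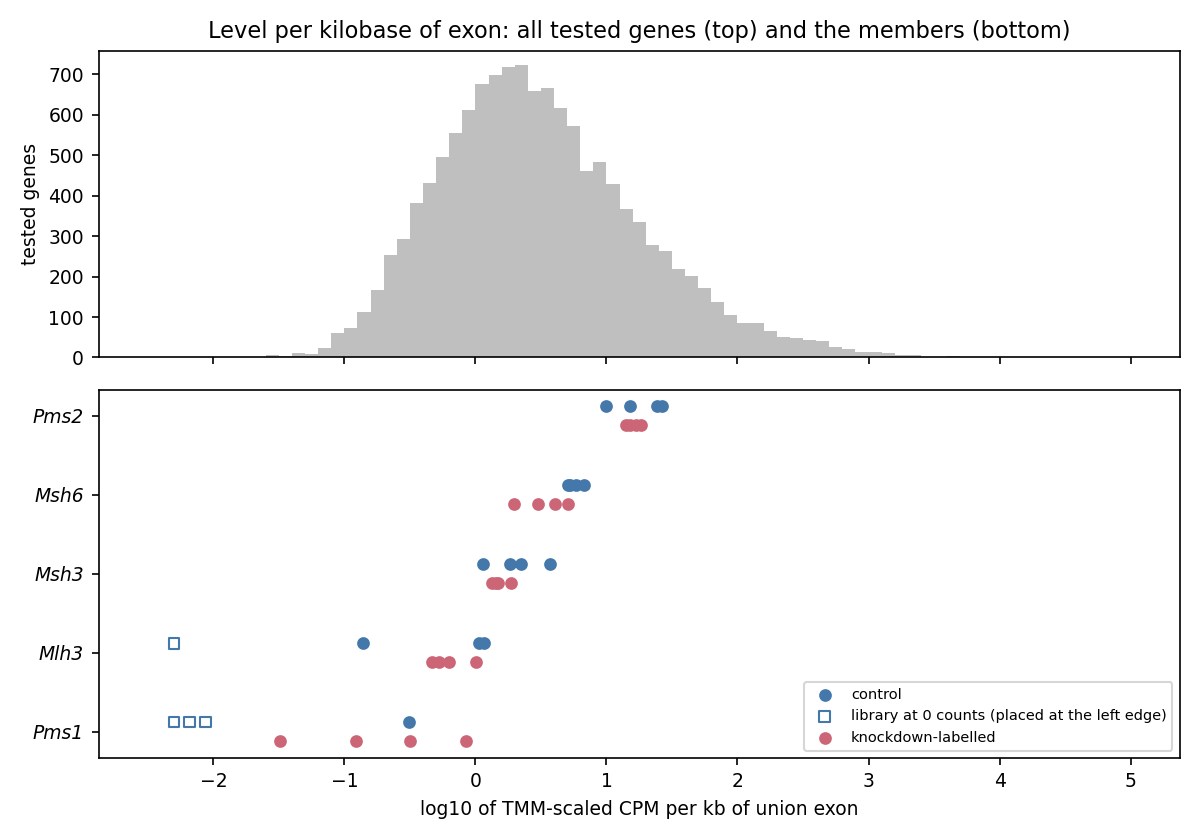
Top, histogram of the mean level of tested genes in log10 CPM per kb of exon. Bottom, the 5 genes in each library on the same axis, with open squares at the left edge for libraries at 0 counts: Pms2 lies in the upper part of the distribution and Pms1 at its lower end.

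Across the 8 libraries the genes did not rise and fall as one group. On the log2 CPM scale Mlh3 and Pms2 followed each other most closely (Pearson r 0.826, Spearman rho 0.857, n = 8), being low together in control replicate 1 and high together in control replicates 2 and 3. Msh6 and Pms1 were the most opposed pair (r -0.722, rho -0.743, n = 8), and Msh3 and Msh6 had r 0.229. These values share library size and composition and are given as a description. Pms1 was at 0 in control replicates 1, 3 and 4, and Mlh3 in control replicate 1. There the log2 CPM is set only by the small count added before taking logs.

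Among the 3164 tested genes whose log2 CPM averaged 5 or more, the closest patterns over the 8 libraries were those of Btg1 (r 0.933) and Uhrf1bp1l (0.883) for Msh3. For Msh6 they were Ebpl (0.927) and Eef1e1 (0.902), and for Mlh3 Pcgf5 (0.963) came first. For Pms2 they were Tmem50b (0.956) and Mis12 (0.939), and for Pms1 Chchd2 (0.891) and Uimc1 (0.871). With so many genes searched over 8 libraries, values of this size describe these libraries only.

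After recognition the mismatched strand is cut away and rebuilt. Of 16 genes of these excision and resynthesis steps 13 were tested, and none passed the test by edgeR, DESeq2 or limma-voom. At an unadjusted p under 0.05 edgeR had 0 of them, and the other tools had 1 each, Rpa2. Their log2 fold changes were positive in 4 and negative in 9, with a median of -0.15. Exo1, the exonuclease that removes the strand, had 25.7 ± 8.85 CPM and 27.96 ± 6.72 CPM (log2 0.12, SE 0.36), and was named after its values were seen. Pcna, the sliding clamp of DNA synthesis, had 207 ± 58.2 CPM and 200 ± 35.1 CPM (log2 -0.05, SE 0.23).

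Hmgb1, a chromatin protein that takes part in reconstituted repair, was the most abundant of the 16 in CPM and had 874 ± 31.3 and 905 ± 106 (log2 0.05, SE 0.13). Rpa2 and Rpa3 are subunits of the complex that covers single-stranded DNA. Rpa2 had 59.6, 19.7, 23.2 and 42.4 CPM in control replicates 1 to 4 and 40.3, 56.6, 61.7 and 97.9 CPM in replicates 1 to 4 of the other group (log2 0.83, SE 0.41), with overlapping groups. Rpa3 had 220 ± 57.1 CPM and 189 ± 7.59 CPM (log2 -0.22, SE 0.20). Rfc5, a subunit of the clamp loader, had 7.86 ± 4.90 CPM and 4.18 ± 3.13 CPM (log2 -0.90, SE 0.84). Subunits 1, 2 and 4 of DNA polymerase delta (Pold1, Pold2 and Pold4) were too low for the test, and Pold3 was tested (28.3 ± 6.64 and 25.6 ± 7.23 CPM); these 4 were named after their values were seen.

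**Figure D4:**
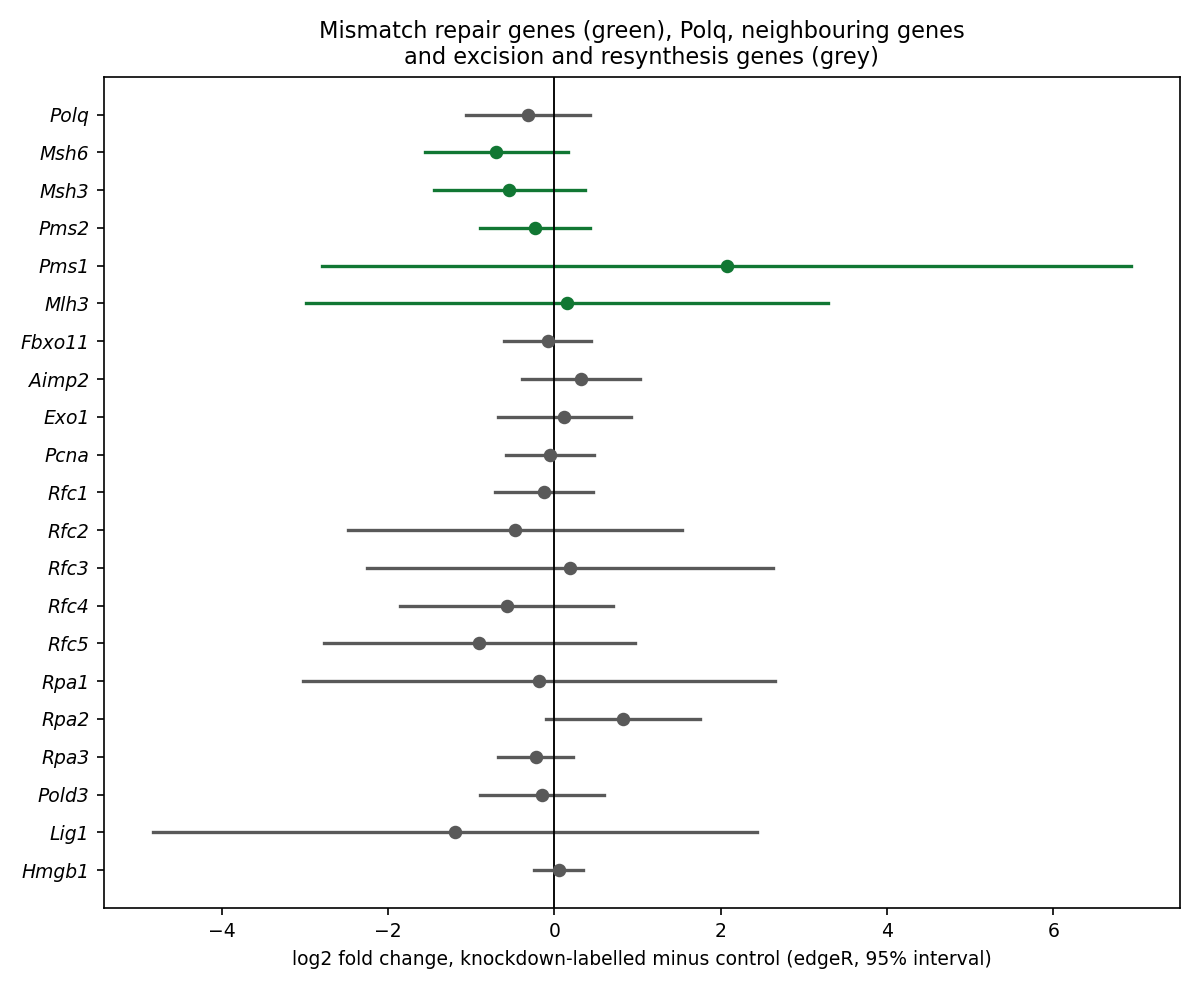
Log2 fold change (knockdown-labelled minus control) with its 95% interval from edgeR for the 5 mismatch repair genes (green) and, in grey, Polq, neighbouring genes and the 13 tested genes of excision and resynthesis. Every interval includes 0, and those of Pms1 (log2 2.07) and Mlh3 (log2 0.15) are the widest of the green ones.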

How the data were processed

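The authors deposited expected counts, with a row for each gene and a column for each library. Per the submitters' processing notes, Trim Galore (0.6.10), STAR (2.7.3a) and the counter RSEM (1.2.28) were used with GRCm38 (mm10). RSEM shares reads that match several genes among them. The sources used here give neither the annotation release nor the strand setting or a filter. Per the labels' protocols, TRIzol was used to extract RNA, and the NEBNext Ultra kit to make libraries. The series text calls the 4 pools of a group biological replicates.

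Expected counts were rounded, which altered 4.22% of values, and genes were filtered by group with filterByExpr (minimum count 10, minimum total 15). Groups were compared with edgeR 4.0.16 in R 4.3.3 (TMM scaling, robust quasi-likelihood test, Benjamini-Hochberg adjustment over 13146 genes, threshold 0.05), with group as the only term. The common biological coefficient of variation was 0.987. Ratios within libraries were compared by 2-sided exact permutation tests (scipy 1.17.1). Gene models are those of GENCODE for GRCm38, and all 5 symbols matched. Stretches shared with other genes (at least 100 bases at 95% identity) were found with blastn 2.17.0.

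The genes and lists were chosen with earlier results of these data known. Named are the 5 genes, Polq, the genes that overlap them or start beside them, and Msh4 and Msh5. Of the lists of excision and resynthesis and of linked factors, the 3 most abundant genes and, in either direction, the 2 of smallest p are named. For each of the 5 genes the 2 genes with the most similar pattern are named. Some genes that this rule names are not reported here. Other settings tried were scaling by upper quartiles, by DESeq2 size factors or by totals only, no filter, at least 5 CPM in 4 libraries, limma-voom (limma 3.58.1), DESeq2 1.42.0, a replicate block, leaving out each library, thinning at random to the smallest total, only libraries above 30000000 counts, 2 added to each count in ratios, and coding length.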

Additional observations from a re-analysis of the deposited data

Results flagged for a closer look

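In 5 of 43 groups of 4 libraries examined, 1 library lay far from the other 3 (Dixon's test at 95%). The test flags about 1 in 20 groups by chance where values are normally distributed. CPM of low counts and libraries at 0 do not meet this, and the genes were chosen with earlier results known. The flagged groups are therefore a description and give no measure of an excess over chance. Pms1 in control replicate 2 had 2.36 CPM, while the other controls were at 0. Msh4, a MutS gene of meiotic crossing over, had 30.5 CPM in knockdown-labelled replicate 1. Its meiotic partner Msh5 had 12.5 CPM in knockdown-labelled replicate 2. Mcm8, a helicase subunit linked to repair by recombination, had 18.1 CPM in knockdown-labelled replicate 1. Ormdl1, the gene that faces Pms1, had 3.35 CPM in knockdown-labelled replicate 3.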

How the results depend on the processing

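No gene of the table passed in 17 of 18 alternatives, and limma-voom was among these (0 called, 817 at an unadjusted p under 0.05, against 369 with edgeR). DESeq2 called 20 genes (14 higher, 6 lower), none of them among the 5. The 5 genes passed in none, and Msh3, Msh6, Pms1 and Pms2 kept their sign in every alternative that tested them. Mlh3 ranged from -0.25 to 0.71 when 1 library was left out, with negative values without control replicate 1 (-0.25), control replicate 4 (-0.18) and knockdown-labelled replicate 4 (-0.14). It was 2.34 with limma-voom. Polq was 0.073 in the 5 libraries above 30000000 counts, of which only 1 is knockdown-labelled, so that this lone library is assumed to vary like the controls. With coding length, 3 of 5 places in the order of levels were as before. Pms1 was not tested under the filter of 5 CPM or after thinning. Same-numbered libraries of the groups did not deviate together (correlations -0.32 to 0.0928). Control replicate 2 had 0.355 with knockdown-labelled replicate 1 and -0.27 with knockdown-labelled replicate 3. These values cannot settle whether the numbers pair libraries, and the labels do not say. With a replicate block 0 genes were called (293 at an unadjusted p under 0.05), and the log2 values were -0.43 for Msh3, -0.77 for Msh6, -0.14 for Pms2, 7.10 for Pms1 and 1.49 for Mlh3. Counts of 20 or fewer stood behind 6 of 8 values of Pms1 and 2 of 8 of Mlh3, and the 0 values lay in deep controls.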

Other observations

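The meiotic MutS genes, which serve crossing over and not mismatch repair, were both detected. Msh4 had 8.35 ± 6.62 CPM in controls and 13.8 ± 11.3 CPM in knockdown-labelled libraries (log2 0.72, SE 0.86), and Msh5 had 2.33 ± 1.80 CPM and 3.67 ± 5.94 CPM (log2 0.66, SE 1.64). Neither passed the test by edgeR, DESeq2 or limma-voom, adjusted or at an unadjusted p under 0.05.

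All 4 genes of factors linked to mismatch repair were tested, and by the same tools none passed, adjusted or not, with 3 positive, 1 negative and a median log2 fold change of 0.14. Setd2, the enzyme that places the H3K36 trimethyl mark to which Msh6 binds, had 167 ± 36.2 CPM and 197 ± 77.4 CPM (log2 0.24, SE 0.29). Mcm8 had 1.12 ± 0.785 CPM and 5.55 ± 8.39 CPM (log2 2.30, SE 1.41), and Mcm9, the partner of Mcm8, had 18.7 ± 13.6 CPM and 16.2 ± 7.86 CPM (log2 -0.20, SE 0.61). Fan1, a nuclease that binds MutL proteins, had 1.33 ± 1.87 CPM and 1.38 ± 1.07 CPM (log2 0.04, SE 2.07).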
